A study of Mus musculus with 11 samples.

Results

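The genes described here encode the 8 subunits of the cytosolic chaperonin CCT, also called TRiC: Tcp1 (the alpha subunit), Cct2 (beta), Cct3 (gamma), Cct4 (delta), Cct5 (epsilon), Cct6a (zeta), Cct7 (eta) and Cct8 (theta). They were 8 of 21887 protein-coding genes on chromosomes 1 to 19, X and Y, and were taken by name. For each gene, every peak within 1000 bases of an end of its mm10 span was collected from lists of WDR5, P53 and H3K4me3 peaks. The family was picked with calls from these lists already known, so its counts and levels are a description and carry no test.

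CUT&RUN, in which an antibody on chromatin guides a nuclease that releases the bound DNA, was applied to mouse embryoid bodies at day 2 of SFEBq culture, a method that steers stem cells towards anterior neural tissue. The genotypes were DKO (Wdr5 and p53 double knockout), KO (Wdr5 knockout) and WT. The parent of all was a stem cell line carrying a GFP knock-in at Rx, and in all of them doxycycline was withdrawn at day 0 and matrigel was added at day 1. The sources used here do not give the deleted parts, what doxycycline controlled or how many clones were used. H3K4me3 had 1 list in each genotype, and WDR5 and P53 had 2 lists each in DKO and in WT.

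CCT is a double ring that folds newly made actin, tubulin and other proteins inside an ATP-driven chamber. Each ring is built from all of the subunits, so cells that grow and divide, such as those of the early embryo, express the whole set. WDR5 is a scaffold of the MLL and SET1 complexes, which place the trimethyl mark on lysine 4 of histone H3 (H3K4me3) at active promoters, and P53 is a stress-activated transcription factor.

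The libraries of H3K4me3 held 43.2 M (mega) fragments in DKO, 22.3 M in KO and 34.2 M in WT, and gave 6418, 918 and 9836 peaks. The lists of WDR5 rested on 36.4 M and 33.7 M fragments in DKO and on 26.6 M and 24.1 M in WT, and those of P53 on 23.9 M to 57.5 M. List 2 put 75.3% of its summits on the same base as list 1 in DKO WDR5, 77.3% in WT WDR5 and 80.3% in WT P53, so each of these was counted as 1 library. DKO P53 had 10.6%. Each list 2, that of DKO P53 included, came from an alignment named as merged, and what was merged is not given. DKO P53 was therefore not counted as replicated. No difference between genotypes therefore has a replicate check, and fold enrichment (fragments at the summit over the local background of the same library, as the authors deposited it) is not scaled between libraries. Of the markers examined, H3K4me3 lay at 8 of 8 pluripotent and epiblast genes in DKO, 3 in KO and 7 in WT, and at 0, 1 and 2 of 7 anterior neural genes, with Six3, Pax6, Lhx2, Hesx1 and Sox1 at none. The mesoderm and endoderm list had 0, 0 and 1 of 7, the trophoblast list 1, 0 and 3 of 6, and the fibroblast feeder list 0, 0 and 1 of 6. The WT call at Eomes counts in both the mesoderm and endoderm list and the trophoblast list. Sox2 and Otx2, called in DKO and WT, count in the pluripotent and epiblast list only. Of all protein-coding genes, 22.8% were called in DKO, 3.20% in KO and 35.5% in WT. Against these shares, counts in such short lists do not establish which cell types were present, and they were not tested.

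H3K4me3 was called at all 8 CCT genes in DKO, at 5 in KO and at all 8 in WT. The 5 in KO were Tcp1, Cct3, Cct4, Cct5 and Cct6a, while Cct2, Cct7 and Cct8 had no peak there. Among all protein-coding genes, 22.8% were called in DKO, 3.20% in KO and 35.5% in WT, and among the 7762 genes called in WT, 59.8% were also called in DKO and 8.98% in KO. The libraries differed in how many peaks they gave. With each list cut to its 918 highest peaks by fold enrichment, 3 CCT genes were called in DKO (Cct3, Cct4 and Cct6a) and 1 in WT (Cct6a). The KO count of 5 could not change, since the KO list set the length. In the top 50% of each list, 6 were called in DKO, 2 in KO (Cct5 and Cct6a) and 8 in WT. The share of all protein-coding genes under these cuts is not given here. The changed counts are thus not shown to be particular to the CCT genes.

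**Figure D1:**
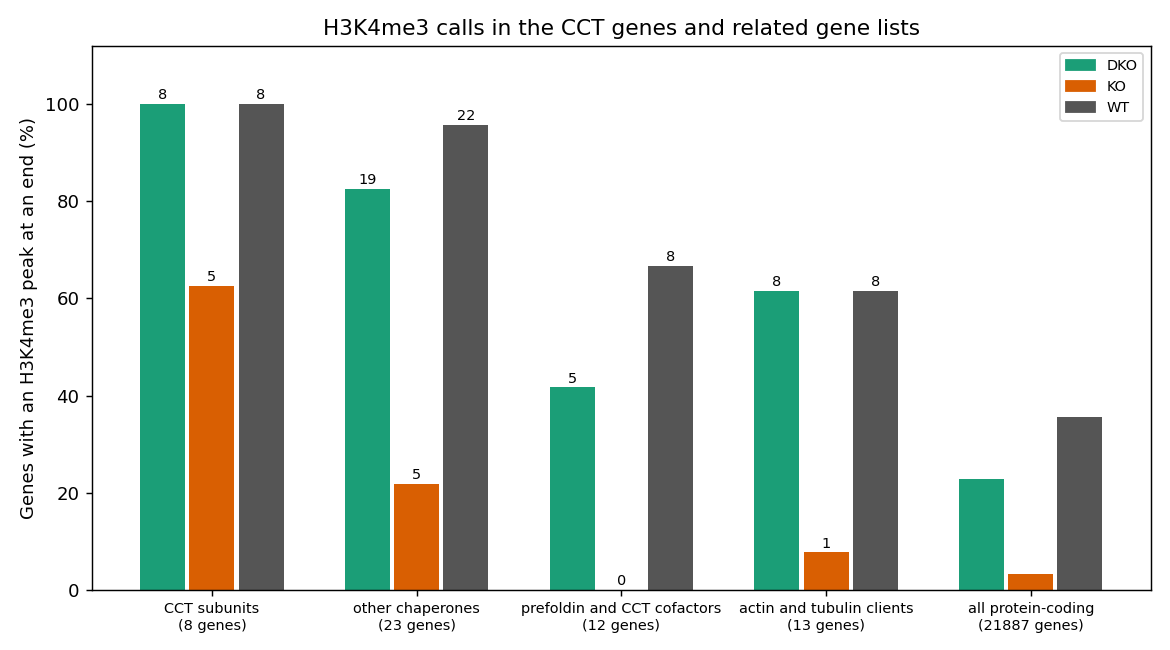
Share of genes with an H3K4me3 peak within 1000 bases of an end (vertical axis, percent) in DKO, KO and WT, for the CCT subunits, 3 related gene lists and all protein-coding genes. Numbers above the bars count the genes called, and the CCT subunits had 8 in DKO, 5 in KO and 8 in WT.

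Calls in the knockouts were more frequent at genes with a higher peak in WT, so the genes marked in WT were split into 5 equal bins by WT fold enrichment. Tcp1, Cct2, Cct3, Cct5 and Cct8 fell in the third bin, between 4.45 and 5.01, where 61.4% of genes were called in DKO and 8.11% in KO. Of these, DKO had 5 and KO had 3. Cct4 fell in the fourth bin, where 70.8% and 11.0% of genes were called, and it was called in both. Cct6a and Cct7 fell in the highest bin, with 84.0% of genes called in DKO and 20.1% in KO, and of these genes only Cct7 was without a KO peak.

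**Figure D2:**
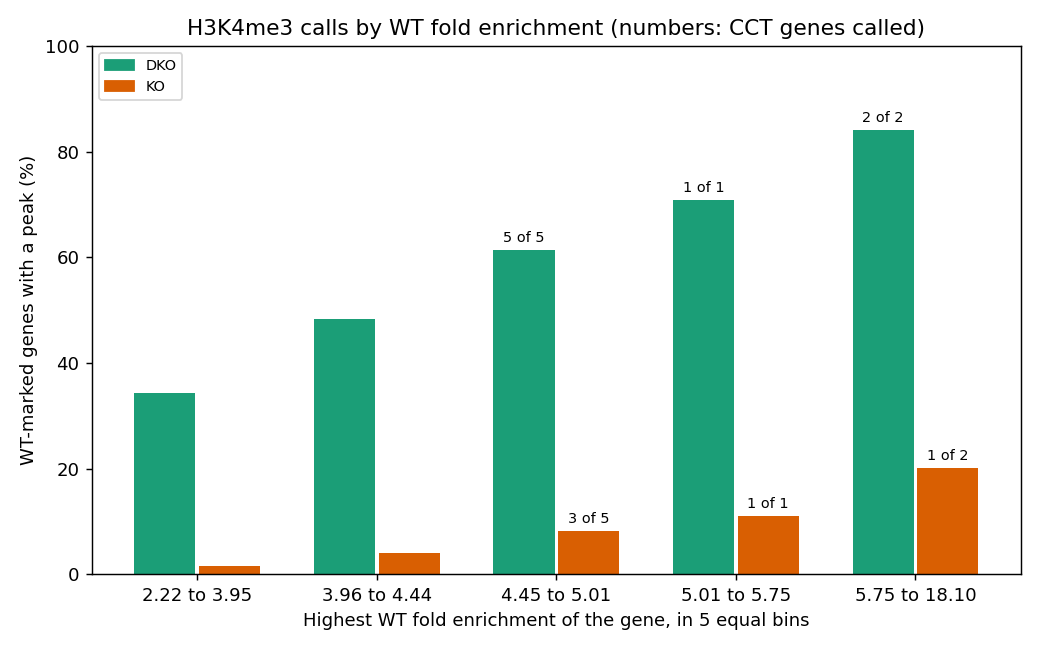
Share of the genes marked in WT that also had an H3K4me3 peak in DKO and in KO (vertical axis, percent), in 5 equal bins of the gene's highest WT fold enrichment (horizontal axis). Numbers above the bars give the CCT genes called of those in the bin, 3 of 5 in KO in the third bin and 1 of 2 in the highest.

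In level, the CCT genes lay near the median of the marked genes in WT, with a median highest fold enrichment of 4.83 over 8 genes, against 4.72 over all 7762 genes called. In DKO the medians were 4.48 over the 8 and 4.03 over 4999 genes, and in KO 4.52 over the 5 called and 4.60 over 701 genes. The log2 difference of DKO over WT had a median of -0.26 over the 8 genes and -0.30 over the 4638 genes called in both. For KO over WT the median was -0.17 over the 5 genes and -0.27 over 697 genes. A gene enters the KO comparison only if it was called there, so these medians leave out Cct2, Cct7 and Cct8. They compare the highest peak of each genotype, which is not always the same peak. Against the WT peak that overlaps it, an alternative chosen after seeing the data, the medians were -0.21 for DKO and -0.17 for KO, beside -0.28 over 4342 genes and -0.25 over 693 genes.

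Cct6a had the highest mark of the family in every genotype, with a fold enrichment of 5.78 in DKO, 5.98 in KO and 7.38 in WT. In WT that was higher than in 97.2% of the genes called, in DKO 96.6% and in KO 90.6%. Its peak stood across the start of the gene, from 129787005 to 129788165 on chromosome 5 in DKO and from 129787007 to 129788264 in WT. The KO peak ran from 129787450 to 129787769, wholly inside the gene, and was 320 bases long against 1161 in DKO and 1258 in WT. Psph, which encodes phosphoserine phosphatase of serine synthesis, has a start 103 bases away on the other strand and shares this peak. Its span overlaps that of Cct6a by 88 bases. A separate peak beyond the far end of Cct6a, 889 bases away in DKO and 581 in WT with none in KO, lay at the start of Sumf2, a sulfatase modifying factor gene.

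The promoter window of Cct6a, 250 bases before to 50 after the start at chr5:129787106-129787405 on the + strand, is shown because the peaks of DKO and WT cover all 300 of its bases and the KO peak none. It comes from the RefSeq set of GRCm38.p6, the assembly of mm10. Capitals mark matches to the motifs named further on, here GGGCGG and CCAAT on this strand.
Cct6a: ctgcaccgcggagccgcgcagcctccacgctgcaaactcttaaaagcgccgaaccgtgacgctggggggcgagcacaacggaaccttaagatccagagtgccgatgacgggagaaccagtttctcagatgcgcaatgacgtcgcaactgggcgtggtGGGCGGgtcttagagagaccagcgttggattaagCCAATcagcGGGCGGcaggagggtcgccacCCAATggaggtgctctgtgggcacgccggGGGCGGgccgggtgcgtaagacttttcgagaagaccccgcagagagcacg

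Cct4, whose mutation causes a sensory neuropathy in the rat, had 5.37 in DKO, 4.52 in KO and 5.65 in WT. Its peak on chromosome 11 began at 22990612 in DKO, 22990652 in KO and 22990634 in WT, and lay within the gene in all of them. The log2 difference of KO over WT, -0.32, was the lowest among the 5 genes. Cct4 is also a place of WDR5, described below.

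Cct5, whose mutation causes a sensory neuropathy in humans, had 3.98 in DKO, 4.71 in KO and 4.79 in WT. KO was thus close to WT, with a log2 difference of -0.02, and DKO was lower than KO, with -0.25. The KO peak was also the longest of the family in that library, at 637 bases. Upstream of the gene, a peak on the Atpsckmt side, 459 bases from the start of Cct5, was called in WT with 3.13 and in neither DKO nor KO. Atpsckmt encodes a lysine methyltransferase of ATP synthase, and its start lies 270 bases from that of Cct5.

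Cct3 had 5.01 in DKO, 4.32 in KO and 4.87 in WT, and was the CCT gene at which DKO exceeded WT in fold enrichment (log2 difference 0.04). Its pileup per M fragments of the library went the other way, with 1.13 in DKO and 1.29 in WT. By fold enrichment Cct3 stood above 86.2% of the genes called in DKO, in KO above 35.0% and in WT above 55.1%. Tcp1, the subunit that gave the family its name, had 3.74 in DKO, 3.97 in KO and 4.48 in WT, and was the lowest of the 5 genes in KO. The WT value is that of a peak upstream of the Tcp1 start, while those of DKO and KO are of the peak inside Tcp1. The span of Mrpl18 overlaps that of Tcp1 by 1459 bases and holds both the upstream and the inner peak. Inside Tcp1, WT had 4.01, which puts the log2 difference there at -0.10 for DKO over WT and -0.01 for KO over WT. Upstream, DKO had 3.36 against 4.48 in WT, and KO had no peak.

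Tcp1 and Cct3 had called peaks on both sides of the start in DKO and WT, with a stretch between that held no called peak. At Tcp1 that stretch was 606 bases in DKO and 564 in WT, and at Cct3 it was 282 and 226. In KO both genes had the peak inside the gene only. Cct5 and Cct8 had peaks on both sides in WT alone, with 596 and 341 bases between them. Genes with summits on both sides were thus 2 of 8 in DKO, 0 of 5 in KO and 4 of 8 in WT, against 12.3%, 0.143% and 13.2% of all genes called. Over all 8 genes, the summit lay inside the gene for 9 of 12 peaks in DKO, 5 of 5 in KO and 8 of 13 in WT, against 70.2%, 80.0% and 73.7% of all peaks at gene ends. The Sumf2 peak beyond Cct6a is among the outside summits of DKO and WT. Peaks in the KO list were fewer and short, with a median of 383.5 bases against 418 in DKO and 520 in WT.

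**Figure D3:**
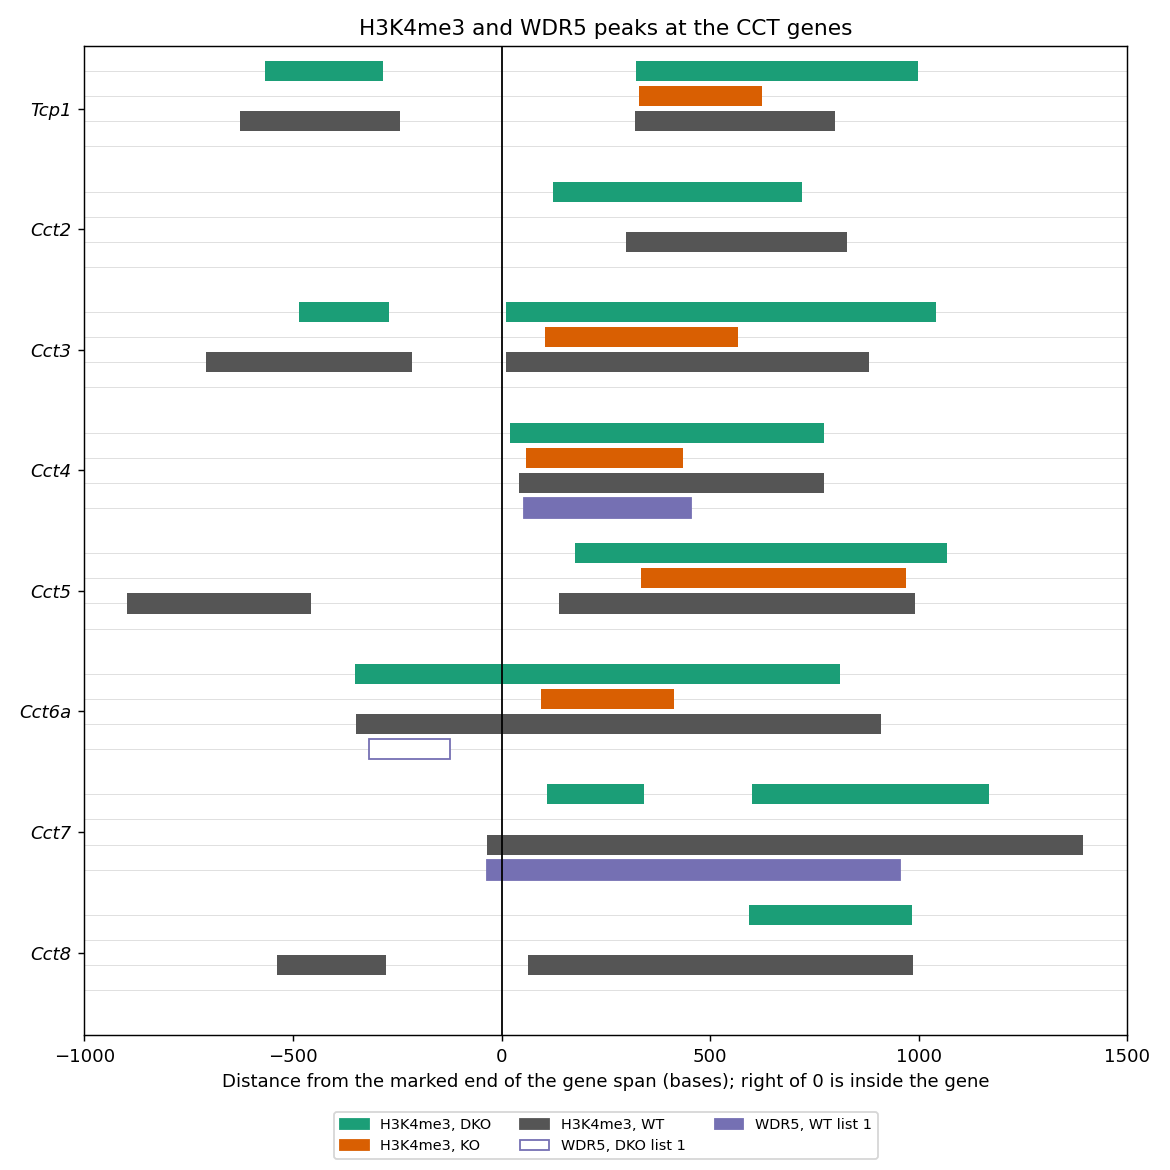
Position of each H3K4me3 peak (DKO, KO and WT) and each list 1 WDR5 peak at the CCT genes, in bases from the marked end of the gene, with the inside of the gene to the right of 0. The peak beyond the far end of Cct6a is not drawn, and the KO bars of Tcp1, Cct3, Cct4, Cct5 and Cct6a all lie to the right of 0.

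The windows of Tcp1 (chr17:12916079-12916378, + strand) and Cct3 (chr3:88296885-88297184, + strand) are shown because they hold much of the stretch without a called peak. The Tcp1 window held 300 of its 606 bases in DKO and 294 of 564 in WT, and the Cct3 window 261 of 282 in DKO and all 226 in WT. At Tcp1 no base of the window lay in a DKO or KO peak and 6 did in WT. At Cct3, 39 bases lay in the inner peak in DKO and in WT, 35 in the outer peak in WT and 0 in KO. Capitals mark the GC box and the CCAAT box and, in Tcp1, the ETS motif, on either strand.
Tcp1: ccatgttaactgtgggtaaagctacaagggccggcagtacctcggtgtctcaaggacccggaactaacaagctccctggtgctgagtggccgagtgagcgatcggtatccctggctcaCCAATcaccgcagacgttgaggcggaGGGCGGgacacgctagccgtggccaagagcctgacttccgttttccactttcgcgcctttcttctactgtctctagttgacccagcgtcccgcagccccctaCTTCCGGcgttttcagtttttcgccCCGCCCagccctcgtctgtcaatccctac
Cct3: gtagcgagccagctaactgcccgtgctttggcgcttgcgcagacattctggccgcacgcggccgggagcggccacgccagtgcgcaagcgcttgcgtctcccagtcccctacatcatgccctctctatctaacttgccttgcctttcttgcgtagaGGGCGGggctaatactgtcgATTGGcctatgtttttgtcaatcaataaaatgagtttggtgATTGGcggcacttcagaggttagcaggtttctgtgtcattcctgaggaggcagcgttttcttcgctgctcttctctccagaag

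Cct2, Cct7 and Cct8 were marked in DKO and in WT and not called in KO. Cct2, which encodes the subunit also known as a receptor for autophagy of protein aggregates, had 4.16 in DKO and 4.61 in WT, with peaks of 597 and 529 bases. Cct8 had 3.59 in DKO and 4.58 in WT, and the marked length at it was 389 bases in DKO against 1184 in WT. Its DKO peak lay 594 bases into the gene and is lost when the distance is cut to 500 bases, which leaves 7 genes in DKO.

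Cct7 had 4.80 in DKO and 6.10 in WT, the second highest of the family in WT. These came from different places in the gene, with the highest DKO summit 865 bases from the start and the WT summit 120 bases from it. The DKO peak nearer to the WT summit, with its own at 170 bases, had 3.63. Its log2 difference over WT was -0.75, against -0.35 for the highest DKO peak. The pileup per M fragments of the library was 0.602 at the nearer and 0.810 at the highest DKO peak, and 1.64 in WT. For Cct6a it was 1.07 in DKO, 1.26 in KO and 1.67 in WT. The single WT peak of Cct7, 1427 bases from 85451471 to 85452897 on chromosome 6, stood against 2 shorter peaks in DKO, from 85451613 to 85451845 and from 85452106 to 85452672, which covered 800 bases. The KO library had the fewest fragments, and its lowest peak had a pileup of 14 fragments, while the 5 CCT genes called there had 21 to 28. The part of depth in the missing calls was not tested.

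**Figure D4:**
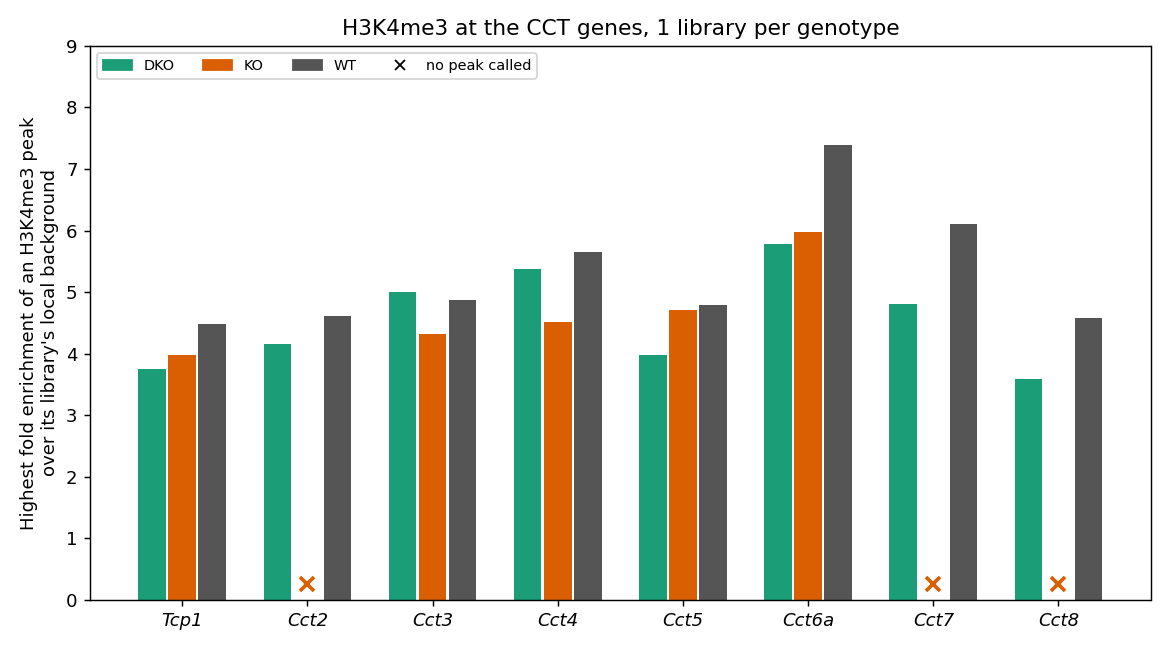
Highest fold enrichment of an H3K4me3 peak at each CCT gene (vertical axis) in DKO, KO and WT, 1 library each, with a cross where no peak was called. Cct6a was highest in each genotype, at 5.78, 5.98 and 7.38, and the crosses stand at Cct2, Cct7 and Cct8 in KO.

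Summed over the family, called peaks covered 7187 bases in DKO, 2089 in KO and 9370 in WT, from 12, 5 and 13 peaks. The sums include the peak at the start of Sumf2, with 389 bases in DKO and 722 in WT. The median per called gene was 846.5 bases in DKO, 376 in KO and 1238.5 in WT, against 536, 387 and 677.5 over all genes called. The part of depth in these lengths was not tested.

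WDR5 was called at Cct7 and Cct4, in both WT lists and in neither DKO list. These were 2 of 8 genes, against 1.11% of all protein-coding genes with a WDR5 region in WT and no DKO peak at an end, and 1.49% with a WDR5 region in WT (3.71% of the genes marked by H3K4me3 in WT). At Cct7, WT list 1 had a fold enrichment of 8.24 and list 2 had 7.01, with a pileup of 43 and 32 fragments. It ranked 44th of 725 peaks in list 1 and 61st of 450 in list 2. The peak ran from 85451471 to 85452458 in list 1 and from 85451545 in list 2, so it covered the start of Cct7 in list 1 and began 40 bases inside the gene in list 2.

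At Cct4, WT list 1 had 6.74 and list 2 had 6.42, with a pileup of 28 and 24, and rank 91 of 725 and of 450. The peak had the same limits in both lists, 22990647 to 22991046 on chromosome 11. Its summits lay 324 and 355 bases into the gene, next to the WT H3K4me3 summit at 297. Both WDR5 places lay within the WT H3K4me3 peak of the same gene. H3K4me3 in the knockouts was not the same at the pair: Cct4 was called in DKO and KO, and Cct7 in DKO only. Of the 207 genes marked in WT that had such a WDR5 region, 72.0% had H3K4me3 in DKO and 13.0% in KO.

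Cct7 shares its region with Pradc1, which encodes a protease-associated domain protein and reads the other way. Pradc1 has starts on both sides of the Cct7 start, so the promoter is shared and the peak cannot be given to either gene alone. Its outer window, chr6:85451921-85452220 on the - strand, lay wholly within the WDR5 peak of both WT lists and in the WT H3K4me3 peak, and 115 of its 300 bases lay in a DKO H3K4me3 peak. Of the Cct7 window, chr6:85451255-85451554 on the + strand, 84 bases lay in the WDR5 peak of list 1 and 10 in that of list 2. They are shown because they flank the summits of the highest WDR5 peak of the family: the Pradc1 window lies under the peak, most of the Cct7 window lies upstream of it, and the summits, at 85451715 in list 1 and 85451706 in list 2, fall between them. Capitals mark GGGCGG and CCAAT on either strand in Cct7, and GGGCGG on the other strand and GAANNTTC in Pradc1.
Cct7: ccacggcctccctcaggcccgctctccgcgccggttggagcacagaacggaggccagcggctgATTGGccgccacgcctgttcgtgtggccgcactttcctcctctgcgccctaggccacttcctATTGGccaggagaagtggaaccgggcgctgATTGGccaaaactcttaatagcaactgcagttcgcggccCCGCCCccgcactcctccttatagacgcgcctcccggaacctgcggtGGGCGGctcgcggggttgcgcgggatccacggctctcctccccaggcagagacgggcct
Pradc1: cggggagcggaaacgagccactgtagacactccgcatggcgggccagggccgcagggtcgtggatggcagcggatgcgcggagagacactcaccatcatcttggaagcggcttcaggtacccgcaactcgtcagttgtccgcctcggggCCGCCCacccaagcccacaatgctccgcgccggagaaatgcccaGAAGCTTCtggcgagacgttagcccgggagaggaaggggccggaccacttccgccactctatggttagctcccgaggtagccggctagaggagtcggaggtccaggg

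A WDR5 peak was also called at Cct6a in DKO list 1, with 3.95 at a pileup of 17, from 129787037 to 129787231, and in neither DKO list 2 nor a WT list. It ranked 189th of 226 peaks, in cells labelled as lacking Wdr5. It lay upstream of Cct6a, inside the span of Psph and within the H3K4me3 peak of DKO. In that list 0.649% of protein-coding genes had a peak at an end, and 0.416% had a region in both DKO lists. The other 5 genes had no WDR5 peak at an end in any list, and the nearest WT peak to them was 35344 bases from Tcp1.

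P53 had no peak at an end of a CCT gene in any of the 4 lists. The share of protein-coding genes with a region in both lists was 0.0320% in DKO and 0.0685% in WT, and with a peak in either list 0.0411% and 0.119%, so 0 of 8 does not set the family apart. The nearest WT P53 peak was 70132 bases from Cct6a in list 1 and 70128 in list 2.

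Most CCT promoters are shared. Of the 7 genes with a promoter window in the RefSeq set, 6 had a start of another gene on the opposite strand within 1000 bases upstream, against 12.3% of 17492 protein-coding genes. The partners were Mrpl18 at Tcp1 (238 bases between the starts), Tsacc at Cct3 (136), Atpsckmt at Cct5 (270), Psph at Cct6a (103), Pradc1 at Cct7 (203) and the long noncoding RNA gene B130034C11Rik at Cct8 (204). Mrpl18 encodes a protein of the mitochondrial ribosome, and Tsacc a co-chaperone of the testis. Cct2 had none, and Cct4 was not analysed for this. H3K4me3 at these 6 genes may belong to either neighbour, and the mark does not show which is transcribed. The far ends of Cct5 and Cct8 lie 681 bases from Cmbl and overlap Usp16, and no peak was counted there. Just inside the limit of 1000 bases was the Sumf2 peak in DKO, at 889 bases from Cct6a, and just outside were peaks 3316 bases from Cct3 in DKO and 3317 in WT.

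The GC box, GGGCGG, was in 7 of the 7 windows, against 35.9% of 27025 windows of all genes, with both strands searched. The CCAAT box, CCAAT, was in Tcp1, Cct3, Cct6a and Cct7 (38.0% of all windows), and the ETS motif, CCGGAAG, in Tcp1, Cct2 and Cct8 (9.14%). At Tcp1 the ETS match ran across the start of the gene. Of the others, the E-box CACGTG (7.24%), the YY1 motif AAGATGG (6.46%) and the heat shock element pair GAANNTTC (7.96%) were in 0 of 7 windows. In these windows no match overlapped another motif. GC made up 47.3% of the Cct5 window and 67.7% of the Cct7 window, the extremes of the 7, against a median of 52.7% over all windows, and the motif counts were not adjusted for GC.

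Related genes of protein folding were counted in the same way. Beside them, 22.8% of all protein-coding genes were called in DKO, 3.20% in KO and 35.5% in WT. A WDR5 region in WT absent from DKO lay at 1.11% of all genes, and a P53 region in WT at 0.0685%. Of 23 other chaperone genes, H3K4me3 lay at 19 in DKO, 5 in KO and 22 in WT. The 5 in KO were Dnajb1 (fold enrichment 5.46 in DKO, 5.60 in KO and 8.30 in WT), Hspa9, the mitochondrial HSP70 (5.07, 5.45 and 5.57 in the same order), Dnajc7, Stip1, which links HSP70 to HSP90 (4.31, 3.92 and 6.52), and Hsp90aa1 (4.76, 3.54 and 4.39). WDR5 regions in WT that were absent from DKO lay at Hsph1, an HSP110 gene (7.23 and 6.30 in the lists), and Hsp90b1, the HSP90 of the endoplasmic reticulum (5.09 and 4.72). Hspa9 had a WDR5 peak in WT list 1 only, with 4.85.

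Of 12 genes of prefoldin, which hands unfolded actin and tubulin to CCT, and of CCT cofactors, 5 were called in DKO, 0 in KO and 8 in WT. Pfdn6 was the highest, with 5.98 in DKO and 8.24 in WT, above every CCT gene in both. The 4 other genes called in DKO were Pfdn1, Pfdn2, Pfdn5 and Pdcl3. No WDR5 region called in both WT lists lay at a gene of the list, while Txndc9 had a WDR5 peak in WT list 1 only, with 5.72. A P53 region lay at Pdcl, a phosducin-like gene, in WT, with 7.26 and 7.72 and none in DKO. Pdcl had no H3K4me3 peak in any library and is named after its values were seen.

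Among 13 actin and tubulin genes, whose products CCT folds, and relatives, 8 were called in DKO, 1 in KO and 8 in WT. The KO gene was Tubb5, a beta tubulin, with 3.83 in DKO, 3.96 in KO and 3.56 in WT. Tubb2a and Tubb4b were called in DKO and not in WT, and Tuba1a and Tubb2b in WT and not in DKO. Actb, Actg1 and Tubb3 had no peak in any genotype. A WDR5 region absent from DKO lay at Tuba1a in WT, with 4.67 and 4.08. With 3.20% of all genes called in KO, 1 of 13 here and 0 of 12 in the prefoldin list do not set these lists apart. No test was made between these lists and the CCT genes.

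Cct6b, the testis paralogue of Cct6a, had 4.78 in DKO, no peak in KO and 4.59 in WT. Its span overlaps that of Zfp830, a zinc finger gene, by 44 bases at the marked end, and the mark cannot be given to either gene alone. Outside these lists, the 5 genes nearest to the medians of the 5 CCT genes over the 3 H3K4me3 libraries were Pou5f1, Tsacc, Celf1, Nup43 and Ppp4r3a, out of 657 genes called in all 3. Likeness was the Euclidean distance of log2 fold enrichments, 0.04 for Pou5f1 and 0.10 for Ppp4r3a. Tsacc shares its peaks with Cct3.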

How the data were processed

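The authors called peaks per sample on paired-end data with MACS (2.1.2 or 2.1.0.20150731), using no control, a q cutoff of 0.01, a 10 kb window for the local background and no more than 2 duplicates of a fragment, per the file headers. Bowtie2, SAMtools 1.5, bedtools, HOMER 4.10 and build mm10 are named in the submitters' processing notes. The pileup is the authors' coverage signal, fragments over the summit, not scaled to depth. The deposited -log10 p and -log10 q values are given per peak. So is the authors' fold enrichment, which divides the pileup by the background around the peak and is thus a ratio. The pileup per M fragments divides it by the filtered fragments named in the header. Depth and background both bear on how many peaks a library yields.

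Of all peaks, 35 lay outside chromosomes 1 to 19, X and Y and were left out. A gene was called where a peak lay within 1000 bases of an end of its RefSeq span (GRCm38.p6). A WDR5 or P53 region was a peak of list 1 that overlapped a peak of list 2 by at least 1 base. A gene's level is the highest fold enrichment among its peaks. No test was made, as each group held 1 library or lists not shown to be separate. The distance and overlap steps were tested on simulated data. The members, the gene lists, the motifs and the markers were chosen with earlier results of these data known. Genes of the related lists were named if they had a WDR5 region in WT or were among the highest in KO, and others in a count of 5 or fewer after their values were seen. Strand came from the promoter windows, where Cct4 has no entry. Python 3.11.15, pandas 2.3.3 and numpy 2.4.6 were used.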

Additional observations from a re-analysis of the deposited data

How the results depend on the processing

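Settings were changed singly for 7 counts of CCT genes and 2 medians, which gave 46 values that kept within 1.5 times the count or did not move, and 7 that moved. Many of the 46 could not have moved. The nearest P53 peak lay 70128 bases from a CCT gene, so every setting left P53 at 0. Settings that only shorten the lists could not raise the DKO WDR5 count of 0. The 46 are therefore not a measure of robustness. In the top 50% of each list, the count of CCT genes with H3K4me3 in KO was 2. With lists of equal length, the H3K4me3 counts were 3 in DKO and 1 in WT, while that of KO stayed at 5, since its list set the length. The shares of all genes under these cuts are not given. When a peak in either list was enough, WDR5 was called at 1 CCT gene in DKO, Cct6a. With a single DKO WDR5 list, the count was 1 for list 1 and 0 for list 2. These lists were counted as 1 library, so this change of list is not a replicate check. With a -log10 q of at least 5 in both lists, the median log2 difference of KO over WT was -0.24 over 4 genes, since Tcp1 drops out, and 7 genes were left in DKO and 4 in KO. Set against the WT peak that overlaps the highest DKO peak, chosen after seeing the data, the median of DKO over WT was -0.21, since Tcp1 is then compared inside the gene. WDR5 in WT was called at 2 genes in every setting run. No paired analysis was possible because the lists of a group were not shown to be separate libraries and no test was made. Without a second library of H3K4me3 in any genotype, a peak that was not called is not shown to be absent.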
